A study of Homo sapiens with 8 samples.

Results

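A set of 10 genes of the Hippo pathway output was followed in every library, namely the coactivator genes *YAP1* and *WWTR1*, their DNA-binding partner *TEAD1*, and *CCN1*, *CCN2*, *ANKRD1*, *AMOTL2*, *AJUBA*, *AXL* and *LATS2*. These 10 genes, out of 57815 gene identifiers, were chosen by name, with earlier results of these data known. Each matched 1 identifier (*CCN1* is also known as CYR61, and *CCN2* as CTGF). ABC1 and HCC4006 are established lung adenocarcinoma lines, which the study describes as having an intact KEAP1-NRF2 system, and both were grown in low-glucose DMEM with serum. Cells of each line received 100 μM diethylmaleate (DEM), an electrophile that inhibits KEAP1 and so stabilizes the transcription factor NRF2, or only the vehicle DMSO, and RNA was taken after 16 h. The compound is named here as in the study's methods, while the title of the data set spells DEM out as dimethylmaleate. The 4 groups, ABC1 with vehicle, ABC1 with DEM, HCC4006 with vehicle and HCC4006 with DEM, held 2 libraries each, described as biological duplicates. Each line comes from 1 tumour, so a difference between the lines is one between 2 cultures of different origin.

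The Hippo pathway is a kinase cascade that limits growth. The kinases MST1 and MST2 activate LATS1 and LATS2, which phosphorylate YAP and TAZ (TAZ is the product of *WWTR1*) so that they stay in the cytoplasm or are degraded. When the cascade is off, YAP and TAZ enter the nucleus, bind a TEAD factor and raise the transcription of target genes, of which *CCN1*, *CCN2* and *ANKRD1* are the usual readouts. Some targets act back on the pathway: LATS2 is one of its kinases, and AMOTL2 binds YAP at cell junctions. The mRNA levels below say nothing of the phosphorylation or location of YAP and TAZ.

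Levels are given in FPKM, a fragment count divided by transcript length and by the depth of the library, so that levels of different genes can be set side by side. A library held 12515 to 13573 genes at 1 FPKM or above, and sums of FPKM differed by up to 1.18 times between libraries. Replicate libraries correlated across 13682 genes with a Pearson's r between 0.982 and 0.989 on the log2 scale. The files give no read count per library. The authors' mean of scaled counts over a line's 4 libraries was at least 251 for each of the 10 genes in each line, except *AXL* in ABC1 cells, where it was 2.77. As a check of the treatment, *NQO1*, *GCLM*, *TXNRD1* and *SRXN1*, genes that NRF2 activates, were called higher with DEM in both lines, by 1.59 to 2.64 on the log2 scale in ABC1 and by 0.89 to 2.70 in HCC4006. Of all genes tested, 0.768% were called higher in ABC1 and 8.45% in HCC4006. Of 11 alternative fits, the ABC1 call held in 5 for *NQO1*, 6 for *GCLM*, 6 for *TXNRD1* and 8 for *SRXN1*, with log2 fold changes of at least 1.31. In HCC4006 each call held in at least 10. Of the markers of the labelled tissue, all 6 epithelial genes were expressed in both lines. The lung lineage genes *NKX2-1*, *NAPSA* and *SFTPB* summed to between 57.0 and 63.4 FPKM in HCC4006 but only to between 0.99 and 1.39 in ABC1, and *SFTPB* was listed at 0 in ABC1 throughout. Leukocyte markers summed to at most 0.715 FPKM and endothelial markers to at most 0.236, while the 5 fibroblast markers summed to between 3.81 and 9.32, mostly *COL1A1*.

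In GRCh37, the build of the files, *YAP1* lies on chromosome 11 from 101981178 to 102104155, *TEAD1* on chromosome 11 from 12695968 to 12966284, *WWTR1* on chromosome 3 from 149235022 to 149454501 and *AMOTL2* on chromosome 3 from 134074189 to 134094321. *CCN1* lies on chromosome 1 from 86046444 to 86050272, *CCN2* on chromosome 6 from 132269316 to 132272512, and *ANKRD1* on chromosome 10 from 92671853 to 92680844. *LATS2* lies on chromosome 13 from 21547175 to 21635725, *AJUBA* on chromosome 14 from 23440386 to 23451760, and *AXL* on chromosome 19 from 41725128 to 41767671. All 10 are protein-coding genes, and each FPKM value is that of the whole gene.

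TEAD factors bind the DNA letters GGAATG, and the promoters of the targets differ in how many copies they hold. RefSeq promoter windows on GRCh38.p14, each of 300 bases with 250 before and 50 after a transcription start, were found for 8 of the 10 genes (not for *CCN1* and *TEAD1*), with 12 windows among them. The letters GGAATG, read on both strands, stood in 7 of the 12 windows, while 14.03% of all 35116 RefSeq windows held them. By gene, 7 of the 8 had a window with them, and the share of all genes with such a window was not taken. The *CCN2* window held 3 copies, and 0.128% of all windows held 3 or more. The *ANKRD1* window held 2 copies, and 1.37% of all windows held 2 or more. The windows of *LATS2* and *YAP1* held 1 copy, as did the second of the 2 windows of *AMOTL2*, *AJUBA* and *AXL*, whose first window held none, and neither of the windows of *WWTR1* held any. The 4 windows below are those of target genes that DEM changed in HCC4006 cells and of *AMOTL2*, a target that stayed uncalled, printed 5′ to 3′ on the gene's strand with GGAATG or its reverse complement CATTCC in capitals. They are chr6:131951323-131951622 for *CCN2*, chr10:90921038-90921337 for *ANKRD1*, chr13:21061537-21061836 for *LATS2* and chr3:134374398-134374697 for the second listed start of *AMOTL2*, all on the minus strand.
CCN2: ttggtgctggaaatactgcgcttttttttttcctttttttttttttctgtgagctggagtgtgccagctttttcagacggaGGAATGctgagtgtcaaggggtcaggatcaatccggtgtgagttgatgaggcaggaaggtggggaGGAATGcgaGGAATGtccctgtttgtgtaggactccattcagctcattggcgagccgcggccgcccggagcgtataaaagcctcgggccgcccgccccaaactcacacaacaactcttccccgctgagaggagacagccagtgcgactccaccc
ANKRD1: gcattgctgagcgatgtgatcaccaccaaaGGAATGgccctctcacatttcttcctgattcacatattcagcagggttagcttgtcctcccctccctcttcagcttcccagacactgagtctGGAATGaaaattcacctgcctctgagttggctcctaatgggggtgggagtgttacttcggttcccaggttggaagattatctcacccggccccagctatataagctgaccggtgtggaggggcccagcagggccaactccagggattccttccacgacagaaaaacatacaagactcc
LATS2: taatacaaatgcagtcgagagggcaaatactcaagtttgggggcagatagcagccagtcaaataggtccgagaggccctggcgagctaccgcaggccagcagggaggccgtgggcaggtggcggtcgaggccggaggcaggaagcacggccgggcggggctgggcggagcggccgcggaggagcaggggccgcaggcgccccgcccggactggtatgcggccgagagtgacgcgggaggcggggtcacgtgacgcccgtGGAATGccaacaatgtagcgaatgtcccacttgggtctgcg
AMOTL2: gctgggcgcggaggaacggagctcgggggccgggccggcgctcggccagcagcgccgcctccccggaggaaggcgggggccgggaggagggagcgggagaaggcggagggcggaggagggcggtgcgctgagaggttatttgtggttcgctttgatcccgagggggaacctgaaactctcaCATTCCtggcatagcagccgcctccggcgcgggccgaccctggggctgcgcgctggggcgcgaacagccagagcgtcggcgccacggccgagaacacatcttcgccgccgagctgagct
A second motif searched was TGANTCA, where N is any base, a looser form of the AP-1 site, which has C or G as N. It stood in 7.71% of all windows and, among the 12 windows searched, in that of *ANKRD1* alone, at position 56 from its 5′ end. There the letters read TGATTCA, which is not the stricter AP-1 site. The core of the antioxidant response element, TGACNNNGC, which NRF2 binds, stood in 13.35% of all windows and in those of *LATS2*, at position 239, and the second start of *AXL*, at position 204. The CArG box, bound by SRF, stood in 1.29% of all windows and in none of the 12. None of these matches overlapped a GGAATG. A match is a description of the letters and not a measured binding site.

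Without DEM, the lines differed in the level of 9 of the 10 genes. Each test here and below is limma on log2(FPKM + 1), with p-values adjusted by the Benjamini-Hochberg method over all genes whose mean reached 1 FPKM over the libraries compared, and a gene is called at an adjusted p under 0.05. HCC4006 cells had the higher level of 5 genes (*AXL*, *AJUBA*, *WWTR1*, *ANKRD1* and *CCN1*) and the lower level of 4 (*AMOTL2*, *LATS2*, *YAP1* and *CCN2*). Of all 13747 genes tested, 37.3% were called higher in HCC4006 and 30.4% lower, so these counts lay near those over all genes. In these bulk libraries, fewer cells with a transcript and less of it per cell cannot be told apart.

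The coactivators exchanged places between the lines. *YAP1* stood at 87.9 and 97.1 FPKM in the ABC1 vehicle libraries and at 36.4 and 36.1 in those of HCC4006. *WWTR1* stood at 14.1 and 17.9 FPKM in ABC1 and at 65.4 and 68.1 in HCC4006. Neither gene overlapped between the lines, and the gene that was high in one line was the low one in the other. The log2 difference of HCC4006 over ABC1 was -1.33 for *YAP1* (SE 0.09, adjusted p = 1.8e-04 by limma) and 2.00 for *WWTR1* (SE 0.13, adjusted p = 1.5e-04 by limma). *YAP1* made up 84.4% to 87.4% of the sum of the pair in the 4 ABC1 libraries and 34.6% to 36.6% in the 4 HCC4006 libraries. That sum ranged from 102 to 115 FPKM over all 8 libraries, and the ranges of the lines overlapped.

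*TEAD1* was the 1 gene of the 10 that was not called between the lines. Its vehicle libraries stood at 37.3 and 47.7 FPKM in ABC1 and at 34.2 and 38.1 in HCC4006, which overlap (log2 difference -0.22, 95% interval -0.59 to 0.15, adjusted p = 0.227 by limma). Without ABC1 vehicle replicate 0 it was called lower in HCC4006, with a log2 difference of -0.39 (adjusted p = 0.0449 by limma). The other TEAD genes did differ. *TEAD3* stood at 99.8 and 118 FPKM in ABC1 and at 9.63 and 9.22 in HCC4006, and *TEAD4* at 27.3 and 37.5 against 16.8 and 14.5. *TEAD2* was listed at 0 and 0.164 FPKM in ABC1 and stood at 15.8 and 12.4 in HCC4006. The 4 TEAD genes summed to between 165 and 215 FPKM in the ABC1 libraries, with *TEAD3* at 57.5% to 60.7% of the sum, and to between 64.4 and 76.5 in HCC4006, where *TEAD1* held 44.8% to 57.8%.

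**Figure D1:**
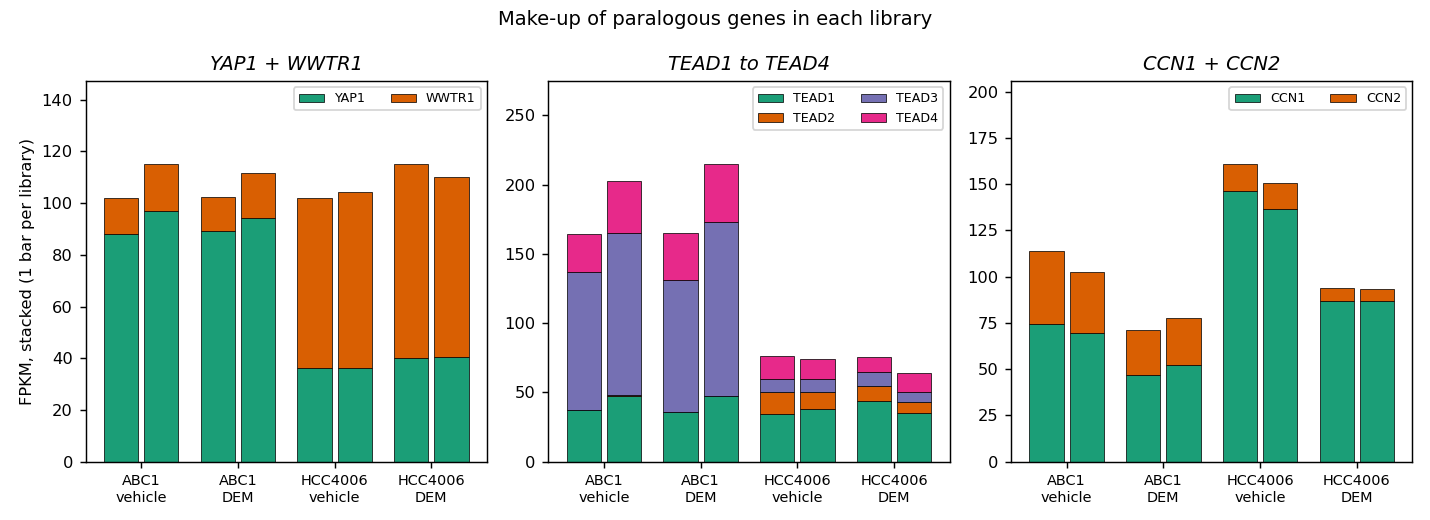
Stacked FPKM of the paralogous genes *YAP1* and *WWTR1*, *TEAD1* to *TEAD4*, and *CCN1* and *CCN2*, with 1 bar for each of the 8 libraries. The sum of *YAP1* and *WWTR1* stayed between 102 and 115 FPKM while its make-up differed by line, *TEAD3* was the main TEAD gene in ABC1, and the sum of *CCN1* and *CCN2* was lower with DEM in both lines.

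The canonical targets did not share a direction between the lines. *CCN1*, which encodes a secreted matricellular protein, stood at 74.2 and 69.4 FPKM in ABC1 and at 146 and 136 in HCC4006, a log2 difference of 0.97 (SE 0.09, adjusted p = 5.0e-04 by limma). Its paralog *CCN2* ran the other way, with 39.4 and 33.3 FPKM in ABC1 and 14.4 in both HCC4006 libraries, a log2 difference of -1.28 (SE 0.12, adjusted p = 4.1e-04 by limma). The ratio of *CCN1* to *CCN2* was thus between 1.88 and 2.08 in the ABC1 libraries and between 9.50 and 12.7 in those of HCC4006, DEM included. *ANKRD1*, which encodes an ankyrin-repeat protein, stood at 90.7 and 55.2 FPKM in ABC1 and at 154 and 160 in HCC4006. The ABC1 replicates of *ANKRD1* lay farther apart than those of the other targets, and its log2 difference of 1.14 (SE 0.23, adjusted p = 0.00843 by limma) was no longer called with no minimum level or without either HCC4006 vehicle library, where the adjusted p rose to as much as 0.144.

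Of the genes that act back on the pathway, those encoding LATS2 and AMOTL2 were lower in HCC4006 cells. *AMOTL2* was the highest of the 10 genes in ABC1, at 206 and 189 FPKM, and stood at 41.4 and 37.6 in HCC4006, a log2 difference of -2.29 (SE 0.10, adjusted p = 3.9e-05 by limma). *LATS2* stood at 27.9 and 25.6 FPKM in ABC1 and at 6.18 and 5.68 in HCC4006, 0.222 times the ABC1 mean (SE of the log2 difference 0.11, adjusted p = 7.7e-05 by limma). *LATS2* made up 74.4% to 76.1% of the sum of *LATS1* and *LATS2* in the ABC1 vehicle libraries and 40.2% to 46.7% in those of HCC4006. *AJUBA*, which encodes a LIM protein that restrains LATS kinases at junctions, was higher in HCC4006, at 37.8 and 34.1 FPKM against 8.60 and 7.24, a log2 difference of 2.05 (SE 0.12, adjusted p = 1.1e-04 by limma).

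*AXL*, the gene of a receptor tyrosine kinase for the ligand GAS6, was all but absent in ABC1. Its 4 ABC1 libraries were listed between 0.0273 and 0.193 FPKM, and the HCC4006 vehicle libraries stood at 54.0 and 49.4. The difference was 5.57 on the log2(FPKM + 1) scale (SE 0.13, adjusted p = 8.6e-06 by limma), and no ratio is given, because the ABC1 values are too near 0. Over all genes it ranked 79 from the highest of 13747.

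In the order of levels without DEM, *AMOTL2* led in ABC1, followed by *YAP1*, *ANKRD1*, *CCN1*, *TEAD1*, *CCN2*, *LATS2*, *WWTR1*, *AJUBA* and *AXL*. The replicate ranges of *YAP1* and *ANKRD1*, of *ANKRD1* and *CCN1*, and of *TEAD1* and *CCN2* overlapped, so their places relative to each other are not resolved. In HCC4006 the order was *ANKRD1*, *CCN1*, *WWTR1*, *AXL*, *AMOTL2*, *YAP1*, *TEAD1*, *AJUBA*, *CCN2* and *LATS2*, with *YAP1* overlapping *TEAD1*, and *TEAD1* overlapping *AJUBA*. With DEM, *CCN1* took the first place in HCC4006 and *CCN2* became the lowest of the 10, while *WWTR1* and *ANKRD1*, next after *CCN1*, overlapped.

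**Figure D2:**
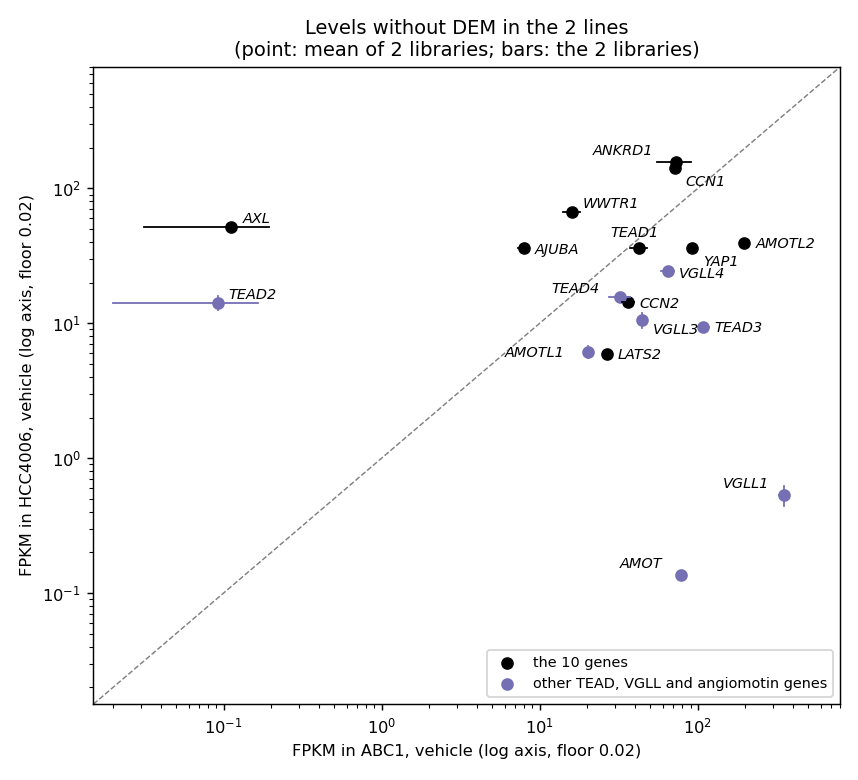
Mean FPKM of the 2 vehicle libraries of HCC4006 (vertical, log axis) against that of ABC1 (horizontal, log axis) for the 10 genes in black and for other TEAD, VGLL and angiomotin genes in purple, with bars spanning the 2 libraries, values under 0.02 drawn at 0.02, and a dashed line of equal level. *AXL* and *TEAD2* sit far above the line, *VGLL1* and *AMOT* far below it, and *TEAD1* near it.

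In HCC4006 cells, DEM lowered the canonical targets *CCN1*, *CCN2* and *ANKRD1* and raised *LATS2*. *CCN1* went from 146 and 136 FPKM with vehicle to 87.1 and 86.6 with DEM, 0.615 times the vehicle mean (log2 fold change -0.70, SE 0.07, adjusted p = 0.00364 by limma). *CCN2* went from 14.4 in both vehicle libraries to 6.98 and 6.81, 0.480 times the vehicle mean (log2 fold change -0.96, SE 0.10, adjusted p = 0.00393 by limma). *ANKRD1* went from 154 and 160 FPKM to 61.9 and 73.7, 0.432 times the vehicle mean (log2 fold change -1.20, SE 0.10, adjusted p = 0.00204 by limma). In each of the 3 genes both DEM libraries lay below both vehicle libraries, and *ANKRD1* ranked 108 from the lowest log2 fold change of 13542 genes. *LATS2* went the other way, from 6.18 and 5.68 FPKM to 8.65 and 8.64, 1.46 times the vehicle mean (log2 fold change 0.48, SE 0.11, adjusted p = 0.0351 by limma).

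Thus 3 of the 10 genes were called lower and 1 higher, against 10.7% lower and 8.45% higher among all genes tested in this line. Both DEM libraries lay below both vehicle libraries for 5 of the 10 genes and above them for 3, where 35.3% and 29.3% of all genes did so. The median log2 fold change of the 10 genes was -0.04 and that of all genes -0.03. The 3 lower calls held under every alternative run except the fit with no minimum level, where *CCN1* (adjusted p = 0.0557 by limma) and *ANKRD1* (adjusted p = 0.0716 by limma) were no longer called. The call of *LATS2* was lost with no minimum level and when any 1 of the 4 libraries was left out, with log2 fold changes between 0.43 and 0.53 in the latter and an adjusted p of up to 0.168 by limma. Of the 6 epithelial markers, *KRT7*, *KRT8* and *KRT18* were also called lower with DEM in HCC4006, and the other 3 were not called. The mean of *EPCAM* was 244 FPKM with vehicle and 254 with DEM, that of *CDH1* 156 and 141, and that of *KRT19* 664 and 617. The 6 summed to 4393 to 4578 FPKM with vehicle and 3443 to 3487 with DEM, and keratins made up most of these sums. Their part in the result was not tested.

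The coactivators, *TEAD1*, *AMOTL2*, *AJUBA* and *AXL* were not called in HCC4006. *YAP1* stood at 36.4 and 36.1 FPKM with vehicle and at 39.9 and 40.4 with DEM (log2 fold change 0.14, 95% interval -0.04 to 0.32), and *WWTR1* at 65.4 and 68.1 with vehicle and 75.1 and 69.8 with DEM (log2 fold change 0.12, 95% interval -0.07 to 0.30). Both were slightly higher in the DEM libraries, without overlap, while the canonical targets were lower. *TEAD1* stood at 43.7 and 35.1 FPKM with DEM (log2 fold change 0.12, 95% interval -0.19 to 0.42). *AMOTL2* stood at 37.2 and 34.7 FPKM with DEM against 41.4 and 37.6 with vehicle (log2 fold change -0.13, 95% interval -0.34 to 0.08), and *AXL* at 48.0 and 43.2 against 54.0 and 49.4 (log2 fold change -0.18, 95% interval -0.40 to 0.04). *AJUBA*, at 37.5 and 36.8 FPKM with DEM, lay within the range of its vehicle libraries (log2 fold change 0.05, 95% interval -0.16 to 0.26). The adjusted p of these 6 genes ranged from 0.204 to 0.716 by limma.

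**Figure D3:**
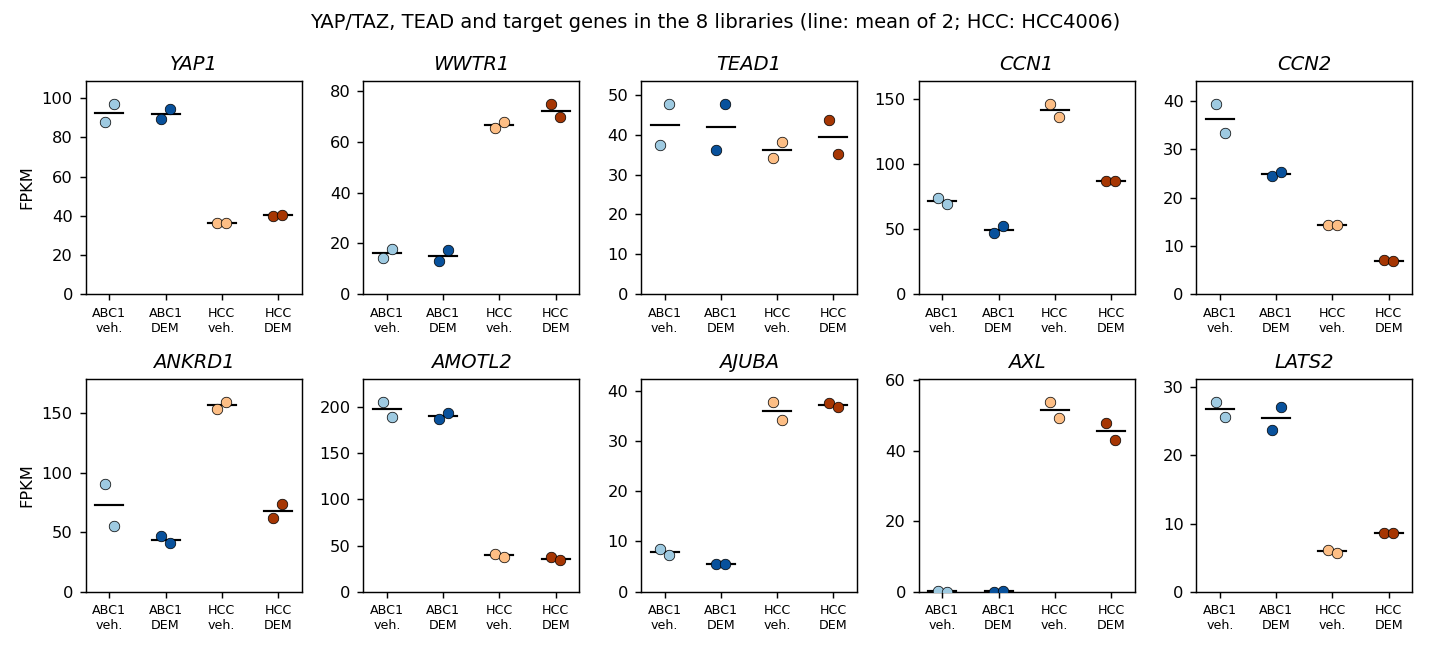
FPKM of each of the 10 genes in the 8 libraries, on linear axes from 0, with points for libraries and a line for the mean of 2, for ABC1 (blue) and HCC4006 (orange) with vehicle (light) and DEM (dark). The DEM points of *CCN1*, *CCN2* and *ANKRD1* lie below the vehicle points in both lines, those of *AJUBA* only in ABC1, and *AXL* is near 0 in ABC1.

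In ABC1 cells none of the 9 genes tested was called with DEM, and *AXL* lay under the minimum level. The 3 canonical targets and *AJUBA* were nevertheless lower in both DEM libraries than in both vehicle libraries. *CCN1* stood at 74.2 and 69.4 FPKM with vehicle and at 46.8 and 52.3 with DEM (log2 fold change -0.53, 95% interval -0.84 to -0.21, adjusted p = 0.101 by limma). *CCN2* stood at 39.4 and 33.3 FPKM against 24.4 and 25.4 (log2 fold change -0.53, 95% interval -0.86 to -0.19, adjusted p = 0.115 by limma). These were 0.690 and 0.684 times the vehicle mean. *ANKRD1* stood at 90.7 and 55.2 FPKM against 47.0 and 40.7 (log2 fold change -0.68, 95% interval -1.29 to -0.08, adjusted p = 0.188 by limma), and *AJUBA* at 8.60 and 7.24 against 5.48 in both (log2 fold change -0.46, 95% interval -0.83 to -0.08, adjusted p = 0.167 by limma). All 4 had an unadjusted p under 0.05, as did 2771 of the 12635 genes tested. The size of the *ANKRD1* difference rested on 1 vehicle library, since it was -0.33 without ABC1 vehicle replicate 0 and -1.03 without ABC1 vehicle replicate 1.

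Over all genes in ABC1, 0.768% were called higher and 0.435% lower with DEM, smaller shares than in HCC4006, and the called gene closest to 0 had a log2 fold change of 0.798 in size. Both DEM libraries lay below both vehicle libraries for 4 of the 9 genes tested and above them for none, where 28.2% and 25.5% of all genes did so. All 9 log2 fold changes were negative, with a median of -0.08 against -0.02 over all genes, but those of *YAP1*, *WWTR1*, *TEAD1*, *AMOTL2* and *LATS2* lay between -0.08 and -0.01 and turned positive when 1 library was left out. When the spread was estimated over all 8 libraries, *CCN1* (adjusted p = 0.017 by limma), *CCN2* (adjusted p = 0.0249 by limma) and *AJUBA* (adjusted p = 0.0422 by limma) were called lower in ABC1, with 1494 genes called in place of 152. Scaling the libraries to equal sums left all 9 uncalled but moved the calls over all genes from 97 higher and 55 lower to 122 higher and 120 lower. The 6 epithelial markers summed to 4974 to 5825 FPKM with vehicle and to 3666 to 4085 with DEM, with 0 of 6 called. Keratins made up most of these sums, and the means of *KRT7*, *KRT8*, *KRT18* and *KRT19* were lower with DEM. The mean of *EPCAM* was 395 FPKM with vehicle and 393 with DEM, and that of *CDH1* was 119 with either. The part of the 6 markers in the result was not tested.

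The other 5 genes tested in ABC1 showed no such separation. *YAP1* stood at 87.9 and 97.1 FPKM with vehicle and at 89.3 and 94.3 with DEM (95% interval of the log2 fold change -0.32 to 0.30). *WWTR1* stood at 12.9 and 17.4 FPKM with DEM, and *TEAD1* at 36.2 and 47.7, each about as far apart as their vehicle replicates. *AMOTL2* stood at 187 and 194 FPKM with DEM and *LATS2* at 23.8 and 27.0. In all 5 genes the DEM and vehicle ranges overlapped, and the adjusted p ranged from 0.787 to 0.972 by limma.

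**Figure D4:**
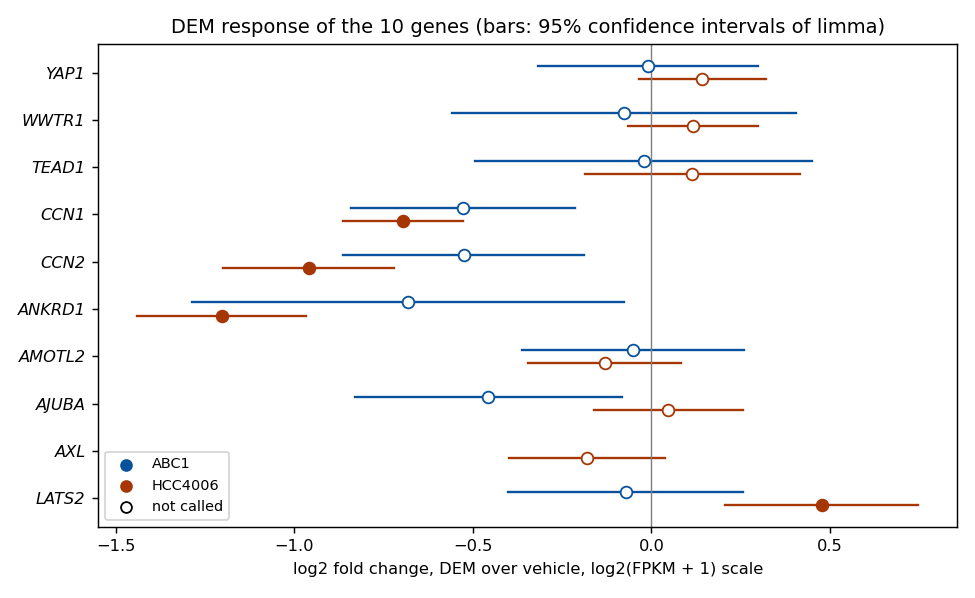
log2 fold change of DEM over vehicle on the log2(FPKM + 1) scale for the 10 genes in ABC1 (blue) and HCC4006 (brown), with 95% confidence intervals from limma, filled where called and open where not. *CCN1*, *CCN2*, *ANKRD1* and *LATS2* are called in HCC4006 and none in ABC1, where the intervals are wider and *AXL* was not tested.

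The difference between the lines in the DEM response was tested as an interaction over the 8 libraries, and none of the 10 genes was called. Over all 13682 genes tested, 0.307% were called with the higher log2 fold change in HCC4006 and 0.329% with the lower one. The difference was 0.55 for *LATS2* (95% interval 0.19 to 0.91, adjusted p = 0.163 by limma), 0.50 for *AJUBA* (95% interval 0.14 to 0.87, adjusted p = 0.199 by limma) and -0.43 for *CCN2* (95% interval -0.79 to -0.08, adjusted p = 0.24 by limma), the 3 genes with an unadjusted p under 0.05. For *CCN1* it was -0.17 (95% interval -0.48 to 0.15) and for *ANKRD1* -0.52 (95% interval -1.24 to 0.20). The call of the canonical targets in HCC4006 and not in ABC1 is therefore no evidence that the lines responded differently. The comparisons of DEM with vehicle share their vehicle libraries with the comparison between the lines.

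Upstream of YAP and TAZ, the 15 genes of the Hippo kinases and their adaptors, formed a list chosen by function. With DEM in HCC4006, 2 of 15 were called higher and 2 lower, against 8.45% and 10.7% of all genes, and in ABC1 none. *WWC3*, a KIBRA-family adaptor gene, rose from 14.2 in both vehicle libraries to 21.8 and 20.3 FPKM (log2 fold change 0.54, adjusted p = 0.0145 by limma), and *MAP4K4*, the gene of a kinase that can activate LATS, from 68.8 and 66.2 to 98.7 and 88.7 (log2 fold change 0.47, adjusted p = 0.0157 by limma). *NF2*, which encodes the scaffold merlin, fell from 48.6 and 50.1 to 38.3 and 35.3 FPKM (log2 fold change -0.41, adjusted p = 0.0216 by limma), and *SAV1*, the gene of an MST partner, from 39.1 and 33.4 to 28.2 and 26.5 (log2 fold change -0.39, adjusted p = 0.0463 by limma). Groups did not overlap for any of these 4 genes. Of all genes, 29.3% had both DEM libraries above both vehicle libraries and 35.3% had them below. Each of the 4 lost its call under between 4 and 7 of the 11 alternatives. In ABC1, *WWC3* stood at 17.1 and 17.4 FPKM with vehicle and at 23.4 and 24.0 with DEM (log2 fold change 0.44, adjusted p = 0.123 by limma). It and the kinase gene *TAOK3* were called higher in ABC1 in the model of all 8 libraries.

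Between the lines, 7 of these 15 genes were called higher in HCC4006 and 4 lower, near the shares of 37.3% and 30.4% over all genes. The 3 with the largest differences among the higher were *FRMD6*, a FERM-domain gene (2.48 and 2.43 against 41.2 and 43.7 FPKM, log2 difference 3.65), *SAV1* (1.76) and *TAOK1* (1.09), the latter a kinase gene upstream of MST1 and MST2. The 3 with the largest among the lower were *WWC2* (-1.83), *STK4* (-1.20) and *STK3* (-1.15), the last pair encoding MST1 and MST2. All 6 differences were called under each alternative run.

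Of the 6 further TEAD and VGLL genes, 1 was called higher in HCC4006 than in ABC1 and 5 lower, against 37.3% and 30.4% of all genes. With DEM, 5 of the 6 were tested in each line, *VGLL1* being too low in HCC4006 and *TEAD2* in ABC1, and none was called. In the model of all 8 libraries, *VGLL1* passed the minimum level only through ABC1, and it was called lower with DEM in HCC4006. There it was listed at 0.626 and 0.439 FPKM with vehicle and at 0.0646 and 0.0586 with DEM. These levels are too low for the call to be read as a change. *VGLL1*, which encodes a cofactor that binds TEAD in place of YAP, stood at 328 and 377 FPKM in ABC1 and at 0.626 and 0.439 in HCC4006 (log2 difference -7.85, adjusted p = 5.3e-06 by limma). *TEAD3* (-3.39), *VGLL3* (-1.98), *VGLL4* (-1.36) and *TEAD4* (-0.99) were lower in HCC4006 too, and *TEAD2* (3.80) was higher. The call of *TEAD4* was lost in 3 of 11 alternatives, with an adjusted p of up to 0.106 by limma, and the difference of *TEAD2*, near 0 in ABC1, was 6.44 with a pseudocount of 0.1. With DEM, *VGLL1* stood at 254 and 293 FPKM in ABC1 (log2 fold change -0.36, adjusted p = 0.234 by limma), and *TEAD2* at 10.8 and 8.33 in HCC4006 (log2 fold change -0.52, adjusted p = 0.0777 by limma).

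Of 4 further genes, of angiomotins (junction proteins that bind YAP) and AJUBA relatives, 1 was called lower with DEM in ABC1, where 0.435% of all genes were. It was the angiomotin gene *AMOT*. It stood at 76.9 and 79.2 FPKM with vehicle and at 35.1 and 40.2 with DEM, without overlap (log2 fold change -1.03, SE 0.13, adjusted p = 0.0413 by limma). Its share of the 3 angiomotin genes went from 25.4% to 27.4% with vehicle to 14.9% to 16.0% with DEM. The call was lost in 6 of 11 alternatives, each left-out library among them, with an adjusted p of up to 0.377 by limma. In HCC4006 *AMOT* was listed between 0.0973 and 0.145 FPKM, and *AMOTL2* made up 84.4% to 88.0% of the angiomotin sum. *AMOT* (-6.12), *AMOTL1* (-1.57) and *WTIP* (-1.13), an AJUBA relative, were called lower in HCC4006 than in ABC1. These were 3 of the 4 genes, where 30.4% of all genes were called lower, and *LIMD1* was not called.

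A list of 16 further YAP and TAZ targets gave 4 genes called lower with DEM in HCC4006 and none higher, where 10.7% of all genes were called lower and 8.45% higher. The median log2 fold change of the 16 was -0.06. *TGFB2*, which encodes a TGF-β ligand, fell from 48.5 and 56.3 FPKM to 21.2 in both DEM libraries (log2 fold change -1.26, SE 0.10, adjusted p = 0.00179 by limma). *IGFBP3*, the gene of a secreted binding protein of insulin-like growth factors, fell from 147 and 149 to 90.4 and 92.8 (log2 fold change -0.69, SE 0.06, adjusted p = 0.00301 by limma). *F3*, which encodes tissue factor, fell from 183 and 185 to 112 and 128 (log2 fold change -0.61, SE 0.08, adjusted p = 0.00815 by limma). *FJX1* fell less, from 66.5 and 65.3 to 51.5 and 50.6 (log2 fold change -0.36, SE 0.07, adjusted p = 0.021 by limma), and kept its call in 4 of 11 alternatives, against 11 for *IGFBP3*, 10 for *TGFB2* and 8 for *F3*. The other 12 genes were not called.

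In ABC1, 14 of these 16 targets were tested and none was called, with 7 log2 fold changes on either side of 0. With the spread estimated over all 8 libraries, *IGFBP3*, *NUAK2* and *FJX1* were called lower. *IGFBP3* stood at 773 and 839 FPKM with vehicle and at 548 and 616 with DEM (log2 fold change -0.47, adjusted p = 0.154 by limma), and *FJX1* at 7.72 and 9.30 against 2.53 and 4.55 (log2 fold change -1.10, adjusted p = 0.0933 by limma). *NUAK2*, a kinase gene chosen here after its values were seen, stood at 3.49 and 3.39 FPKM against 1.08 and 1.72 (log2 fold change -0.90, adjusted p = 0.0999 by limma). In these 3 genes both DEM libraries lay below both vehicle libraries, and the same held for them in HCC4006. Of all genes, 28.2% did so in ABC1 and 35.3% in HCC4006. *F3*, in contrast, stood at 73.0 and 74.2 FPKM with vehicle and at 70.0 and 83.6 with DEM, which overlap. Between the lines, 6 of the 16 were called higher in HCC4006, led by *TGFB2* (5.59), *NT5E* (5.10) and *GADD45A* (2.83), and 5 lower, led by *IGFBP3* (-2.43), *RBMS3* (-1.31) and *CRIM1* (-1.26), near the shares of 37.3% and 30.4% over all genes.

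**Figure D5:**
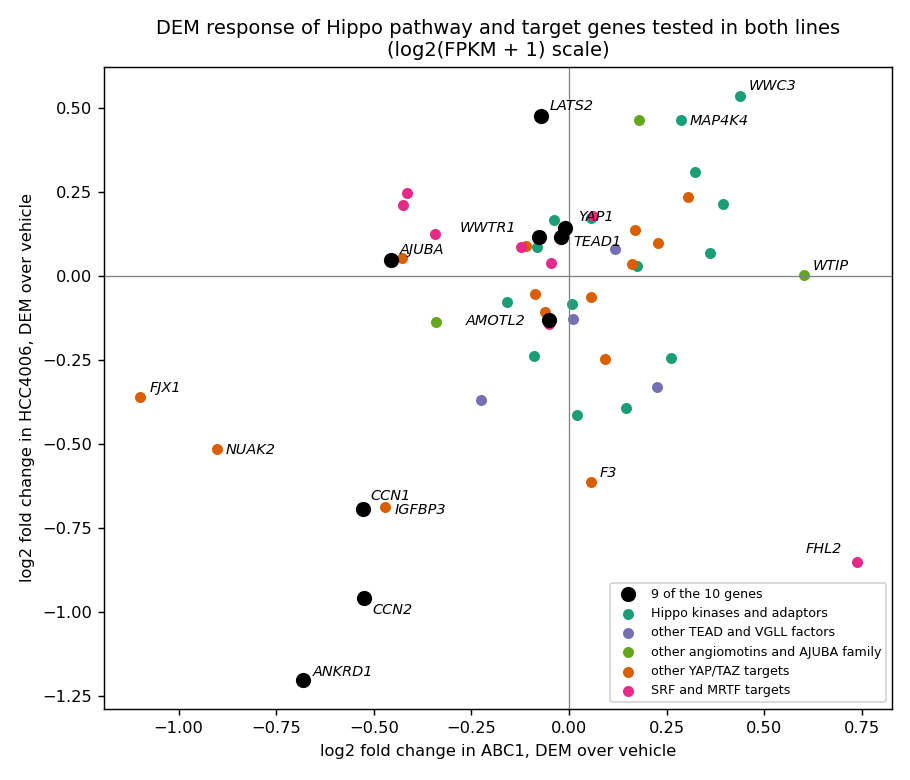
log2 fold change of DEM over vehicle in HCC4006 (vertical) against that in ABC1 (horizontal) for genes of the Hippo and target lists tested in both lines, with 9 of the 10 genes as large black points. *CCN1*, *CCN2*, *ANKRD1*, *IGFBP3*, *NUAK2* and *FJX1* lie in the lower left, below 0 in both lines, and *FHL2* lies farthest to the lower right.

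The targets of SRF and its coactivators MRTF-A and MRTF-B, which share some promoters with YAP and TAZ, were listed for comparison. Of 9 tested in HCC4006, 1 was called lower with DEM and none higher, where 10.7% and 8.45% of all genes were. It was *FHL2*, a LIM-domain gene that fell from 204 and 206 FPKM to 111 and 116 (log2 fold change -0.85, SE 0.06, adjusted p = 0.00164 by limma). In ABC1 none of 8 was called, where 0.435% of all genes were called lower and 0.768% higher. There *FHL2* stood at 15.6 and 13.8 FPKM with vehicle and 24.4 and 25.9 with DEM (log2 fold change 0.74, SE 0.13, adjusted p = 0.0662 by limma). It was called higher in the model of all 8 libraries. Its DEM libraries thus lay below the vehicle libraries in one line and above them in the other. Between the lines, 4 of 9 were called higher in HCC4006, of which *FHL2* had the largest log2 difference (3.71), and 4 lower, where 37.3% and 30.4% of all genes were called.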

How the data were processed

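RNA was sequenced from ABC1 and HCC4006 cells after 16 h with 100 μM DEM or DMSO, 2 libraries per group. Per the study's methods, poly(A)-selected, strand-specific paired-end libraries were aligned to hg19 (GRCh37) with TopHat and quantified with Cufflinks, while the submitters' processing notes also list bcl2fastq 2.15.0, cutadapt 1.15, STAR 2.5.3a, SAMtools, Cuffnorm, HTSeq, DESeq2 and R 3.2.0 without roles. The authors deposited FPKM per gene and library, and a comparison table per line. That table holds fold changes and p-values, which were not used, and a base mean, an average signal of scaled counts over the 4 libraries of a line, from the authors, which was used only to describe depth. FPKM hold no counts, so depth per library is unknown and no counting interval is given.

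FPKM were joined across the 8 libraries, and 55534 of 57815 identifiers were given symbols. Each comparison was fitted by limma 3.58.1 in R 4.3.3 on log2(FPKM + 1), a mean-variance trend included, for genes with a mean of 1 FPKM or more. DEM was compared with vehicle over the 4 libraries of a line, HCC4006 with ABC1 over the 4 vehicle libraries, and the DEM responses over all 8. The pseudocount makes the fold change of low genes too small. The method was tested on simulated data. With 2 against 2 libraries an exact two-sided permutation test of 1 gene cannot give a p under 0.333. Named are the 10 genes, the called genes of each other list (the 3 with the largest log2 difference where more than 3 were called in 1 direction) and 4 NRF2 targets. Cell type markers are given as ranges and counts, and *KRT7*, *KRT8*, *KRT18*, *COL1A1*, *SFTPB*, *FJX1* and other genes named though uncalled or ranked lower were chosen after their values were seen. The genes and lists were chosen with earlier results of these data known. Alternatives were a pseudocount of 0.1, no minimum, median-of-ratios scaling, equal sums, no trend, a model of all 8 libraries, a replicate block and each library left out in turn.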

Additional observations from a re-analysis of the deposited data

Results flagged for a closer look

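The log2 fold change with DEM was called different between the lines for 3 genes of the lists, by the limma interaction over the 8 libraries. They were 1 of 9 SRF and MRTF targets tested, 1 of 16 further YAP and TAZ targets and 1 of 4 angiomotin genes and AJUBA relatives. None of the 10 genes, the 15 Hippo genes or the 6 further TEAD and VGLL genes was called. Over all 13682 genes tested, 0.307% were called with the higher log2 fold change in HCC4006 and 0.329% with the lower one. Of the 3 called list genes, only *FHL2* was above the minimum level in both lines. *FHL2* differed by -1.59 (HCC4006 minus ABC1, SE 0.13, adjusted p = 0.0142 by limma). With DEM its mean was 1.71 times that with vehicle in ABC1, where this rise was not called. In HCC4006 it was 0.552 times that with vehicle, and this fall was called. Over 14 alternatives its difference ranged from -1.67 to -1.50 and was called in 11.

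*TGFB2* differed by -1.23 (adjusted p = 0.0371 by limma) and *AMOT* by 0.99 (adjusted p = 0.0496 by limma), and each was called in 3 of 14 alternatives. *TGFB2* was listed between 0.0490 and 0.158 FPKM in ABC1, and *AMOT* between 0.0973 and 0.145 FPKM in HCC4006. Thus in each of these genes 1 line had almost no transcript in which a change could be seen. Each passed the minimum level only through the other line. The difference of these genes therefore restates the DEM response of 1 line and is no evidence that the lines responded differently.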

How the results depend on the processing

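Of the 10 genes, the calls between the lines held in every alternative except for *ANKRD1* and *TEAD1*, and the DEM calls in HCC4006 except for *LATS2*, *CCN1* and *ANKRD1*, all given with the results. No alternative reversed a called gene among the 10 genes or the other lists, cell type markers aside. The remaining called genes were not checked for this. The cause of the changes in counts below was not tested unless stated. In ABC1, where 152 genes were called, 0 genes were called with no minimum (29470 genes tested in place of 12635), 318 with median-of-ratios scaling, 242 with equal sums, 33 with no mean-variance trend and 1494 with the model of all 8 libraries, which called 3 of the 10 genes lower. In HCC4006, where 2591 genes were called, 370 were called with no minimum, with 1 of the 10 genes called lower and 0 higher, and 1553 with the 8-library model. For the difference between the lines, 87 genes became 20 with a pseudocount of 0.1 and 403 with no minimum. Calls were higher with DEM in 63.8% of the ABC1 calls, 50.4% with equal sums and 49.4% with the 8-library model. Leaving out 1 library, which assumes that the lone sample of a group varies like the others, gave 4 to 29 genes in ABC1, 473 to 683 in HCC4006 (0 of the 10 genes called higher), 5476 to 8798 of 9305 between the lines and 3 to 36 for the difference. In each of these ABC1 runs, some or all of the called genes lay outside the 152 called with every library. Leaving out 1 library also turned the sign of genes that were not called. In ABC1 *YAP1* ranged from -0.081 to 0.061, *WWTR1* from -0.28 to 0.12 and *TEAD1* from -0.21 to 0.17. There *AMOTL2* ranged from -0.11 to 0.0099 and *LATS2* from -0.16 to 0.018. In HCC4006 *TEAD1* ranged from -0.039 to 0.27 and *AJUBA* from -0.025 to 0.12. For the difference *WWTR1* ranged from -0.0091 to 0.39 and *TEAD1* from -0.056 to 0.33.

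Replicate numbers are shared by the groups, but same-numbered libraries deviated together weakly (correlation of deviations 0.258 in ABC1, 0.054 in HCC4006 and 0.036 between the vehicle groups), so they were not treated as pairs. With a replicate block, 2348 genes were called in ABC1 (50.5% higher, and 3 of the 10 genes lower: *CCN1*, *CCN2* and *ANKRD1*), and 13 genes for the difference between the lines. Of the other lists, the block added calls in ABC1 for *WWC3*, *TAOK3*, *WTIP* and *FHL2* (higher) and *VGLL1*, *IGFBP3*, *NUAK2*, *FJX1*, *MYL9* and *FLNA* (lower), and in HCC4006 for *LIMD1* and *FLNA* (higher) and *TEAD2* (lower). FPKM without counts leave the precision of low levels unknown, which bears on *AXL* in ABC1 and on *AMOT*, *TGFB2* and *TEAD2* where they lie near 0.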
